A study of Mus musculus with 8 samples.

Results

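The transcripts described here are those of 10 genes that mark microglia, looked for inside droplets that the study classed as mature oligodendrocytes. The genes were listed by name: Csf1r, Cx3cr1, P2ry12, Tmem119, C1qa, C1qb, C1qc, Ctss, Trem2 and Tyrobp, which are 10 of the 18833 genes in the deposited matrix. The list was set with earlier results of these data known, so counts over it are no independent support. The matrix held 12581 cells from 8 droplet libraries, in which a unique molecular identifier (UMI) marked each captured RNA molecule. The libraries came from the hippocampus and from the cortex of 2 WT mice (mouse 1 and mouse 4) and of 2 FIREdelta/delta KO mice (mouse 3 and mouse 6), all female, aged 1 month 18 days for mice 1 and 3 and 1 month 16 days for mice 4 and 6. The sample named cortex was the rest of the left hemisphere without hippocampus, olfactory bulb and cerebellum. KO mice are homozygous for a germline deletion of an intronic enhancer of Csf1r, which leaves the brain without microglia while other brain macrophages remain. The cells had been sorted by scatter to leave out doublets, and clusters of cells with microglial markers had been set aside by the authors before deposit.

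Microglia are the resident macrophages of brain tissue. They depend on the receptor CSF1R for survival, survey their surroundings through receptors such as P2RY12 and CX3CR1, make most of the complement C1q in the brain, and signal through TREM2 and its adaptor TYROBP when they take up lipid and debris. Oligodendrocytes make myelin and are not known as a main source of these proteins. RNA released when brain tissue is dissociated can enter any droplet, and a droplet can also hold more than 1 cell, so a microglial UMI in an oligodendrocyte droplet does not by itself show in which cell the RNA was made, and this was not tested.

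3 members are shown with the sequence before their transcription start, because they stand at the ends of what follows. C1qb had the highest mean share of WT cells with a UMI, and P2ry12 and Ctss were the members that stayed in most KO cells. Each run is the 250 bases before the RefSeq start (GRCm38.p6), and capitals mark GAGGAA or its reverse complement TTCCTC, the core of the site bound by the microglial and myeloid factor PU.1.
C1qb promoter, chr4:136886201-136886450, minus strand: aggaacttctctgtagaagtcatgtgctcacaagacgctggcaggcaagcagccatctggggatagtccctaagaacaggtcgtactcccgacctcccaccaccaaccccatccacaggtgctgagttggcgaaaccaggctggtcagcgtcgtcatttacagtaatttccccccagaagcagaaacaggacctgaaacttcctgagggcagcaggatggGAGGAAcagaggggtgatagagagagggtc
P2ry12 promoter, chr3:59262986-59263235, minus strand: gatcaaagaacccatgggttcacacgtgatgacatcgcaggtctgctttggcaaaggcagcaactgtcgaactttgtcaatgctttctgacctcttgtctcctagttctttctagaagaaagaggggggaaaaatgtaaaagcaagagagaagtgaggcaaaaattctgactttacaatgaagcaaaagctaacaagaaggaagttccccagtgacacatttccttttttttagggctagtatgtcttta
Ctss promoter, chr3:95526536-95526785, plus strand: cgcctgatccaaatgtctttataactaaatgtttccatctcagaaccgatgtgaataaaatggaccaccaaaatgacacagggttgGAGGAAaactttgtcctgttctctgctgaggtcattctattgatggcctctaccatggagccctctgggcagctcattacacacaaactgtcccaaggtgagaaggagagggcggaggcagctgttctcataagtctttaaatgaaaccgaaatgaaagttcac
Windows of 6 members were examined (Cx3cr1, P2ry12, C1qb, C1qc, Ctss and Trem2). Of these, 4 held the letters on either strand and 2, Cx3cr1 and P2ry12, did not. Csf1r was left out, and the remaining members were not in the RefSeq promoter table. The letters stood in 7639 of 32851 promoter windows of the same length, or 23.3%.

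The cells kept the identity they were labelled with. Mog, Mag and Mbp, which encode myelin proteins, were found in 100% of the cells of both genotypes. Libraries held 904 to 2784 cells, with median UMIs per cell of 9377 to 13243 in WT and 9579.5 to 13725.5 in KO libraries. The WT cortex library of mouse 4 had the highest share of cells with each of the 10 genes, and comes from a batch (cortex of mice 4 and 6) that the study described as of poorer quality; results with and without it are given. 21 cell barcodes occurred in more than 1 library.

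Microglial transcripts were widespread in WT droplets and rare in KO droplets. At least 1 UMI of any of the 10 genes was found in 43.2% (95% Clopper-Pearson interval 41.2 to 45.2) of WT hippocampus cells of mouse 1, 40.0% (37.0 to 43.1) in hippocampus of mouse 4, 39.2% (36.6 to 41.9) in cortex of mouse 1 and 68.0% (65.2 to 70.8) in cortex of mouse 4. In KO libraries the shares were 1.08% (0.728 to 1.53) in hippocampus of mouse 3, 1.19% (0.755 to 1.78) in hippocampus of mouse 6, 1.21% (0.646 to 2.06) in cortex of mouse 3 and 1.22% (0.609 to 2.17) in cortex of mouse 6. The lowest WT library lay far above the highest KO library. Averaged over the tissues of each mouse, 47.6% ± 9.07 (SD, n = 2 mice) of WT cells had such a UMI, against 1.17% ± 0.0417 (SD, n = 2) of KO cells, a ratio of 40.7. The difference was larger than the spread between mice, but 2 mice against 2 cannot give a two-sided exact permutation p below 0.33, which was the value obtained. Within the 4 pairs of libraries that shared a batch, the difference KO minus WT was -42.1 (hippocampus, mice 1 and 3), -38.0 (cortex, mice 1 and 3), -38.8 (hippocampus, mice 4 and 6) and -66.8 percentage points (cortex, mice 4 and 6). Thinned to 5000 UMIs per cell, the shares were 25.9% in WT and 0.563% in KO. Intervals cover counting error only.

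By the mean share over both WT mice, the complement C1q genes ranked highest, although Ctss was found more often than C1qc in both libraries of mouse 1. C1qa, C1qb and C1qc encode the chains of C1q, which starts the classical complement cascade and tags synapses and debris, and they are neighbours on chromosome 4 (C1qb at chr4:136880129-136886187, C1qc at chr4:136889804-136893065, C1qa at chr4:136895917-136898803; GENCODE vM21, GRCm38). In the order hippocampus of mouse 1, hippocampus of mouse 4, cortex of mouse 1 and cortex of mouse 4, C1qb was found in 8.68%, 8.88%, 6.93% and 20.6% of WT cells, and in the order hippocampus of mouse 3, hippocampus of mouse 6, cortex of mouse 3 and cortex of mouse 6 in 0.108%, 0.103%, 0.0931% and 0% of KO cells. The same order of libraries is used below. C1qa was found in 9.44%, 7.64%, 7.60% and 16.7% of WT cells and in 0.0359%, 0.103%, 0.0931% and 0% of KO cells. C1qc was found in 6.03%, 5.73%, 6.56% and 12.9% of WT cells and in 0.0718%, 0.0517%, 0.0931% and 0% of KO cells. For each of these 3 genes the WT cortex library of mouse 4 was the highest and the other WT libraries lay close together. KO cortex of mouse 6 had 0 of 904 cells, which allows a share of up to 0.332%.

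The receptors and surface proteins of homeostatic microglia were found in fewer cells, again with WT cortex of mouse 4 as the highest library. Csf1r on chromosome 18 encodes the receptor for CSF1 and IL-34 and is the gene whose enhancer is deleted. It was found in 5.31%, 5.83%, 5.81% and 10.2% of WT cells and in 0.0718%, 0.155%, 0.0931% and 0% of KO cells. The other members were lower in KO as well, so this difference was not particular to the targeted gene. Cx3cr1 (chr9:119901616-120069879), the fractalkine receptor, was found in 4.38%, 5.73%, 5.14% and 11.8% of WT cells and in 0.0718%, 0.0517%, 0.0931% and 0% of KO cells. Tmem119 (chr5:113793729-113800516), a surface protein used to tell microglia from other macrophages, was found in 1.73%, 2.29%, 2.09% and 4.63% of WT cells and in 0 of 6696 KO cells, which allows at most 0.0448%. Tmem119 was the member with the lowest WT share and the only 1 of the 10 without any UMI in KO cells. P2ry12 (chr3:59216272-59262871), the purinergic receptor that draws microglial processes to ATP and ADP, was found in 4.59%, 3.72%, 4.17% and 8.82% of WT cells. In KO cells P2ry12 was found in 0.359%, 0.310%, 0.279% and 0.553%, the highest mean KO share of the 10 genes.

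The phagocytic signalling pair and the protease completed the list. Trem2 (chr17:48346401-48354147), a lipid receptor, was found in 3.2%, 2.20%, 2.91% and 7.84% of WT cells and in 0%, 0.0517%, 0% and 0.111% of KO cells. Tyrobp (chr7:30413760-30417585), the adaptor through which TREM2 and many myeloid and natural killer cell receptors signal, was found in 4.89%, 4.01%, 3.28% and 8.19% of WT cells and in 0.251%, 0.362%, 0.186% and 0.332% of KO cells. Ctss (chr3:95526786-95556403), the lysosomal protease cathepsin S, was found in 7.63%, 4.78%, 7.00% and 11.1% of WT cells and in 0.359%, 0.310%, 0.372% and 0.221% of KO cells. KO cells therefore held mainly P2ry12, Ctss and Tyrobp, with 24, 22 and 19 cells of 6696, against 2 to 6 cells for each of the other detected members.

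All 10 members had every WT library above every KO library. Over the 11672 genes found in at least 1% of cells on average, the genes that were tested, 0.574% had the 4 KO libraries below the 4 WT libraries in the share of cells. Without the cortex libraries of mice 4 and 6 it was again 10 of 10 members, beside 1.47% of the tested genes. As 0 of the 10 had a mean KO share of 1%, all of them entered the tested genes through their WT libraries. Both counts are therefore a description, and the shares beside them are no support for a difference. By mean share over the 2 WT mice the order was C1qb 11.3% ± 4.89 (SD, n = 2 in all), C1qa 10.4% ± 2.60, C1qc 7.81% ± 2.14, Ctss 7.63% ± 0.451, Csf1r 6.77% ± 1.72, Cx3cr1 6.77% ± 2.85, P2ry12 5.33% ± 1.33, Tyrobp 5.09% ± 1.43, Trem2 4.04% ± 1.39 and Tmem119 2.68% ± 1.10. Each neighbouring pair in this order differed by less than the larger of its 2 SDs. The order compares how often genes were found, not RNA molecules per length.

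**Figure D1:**
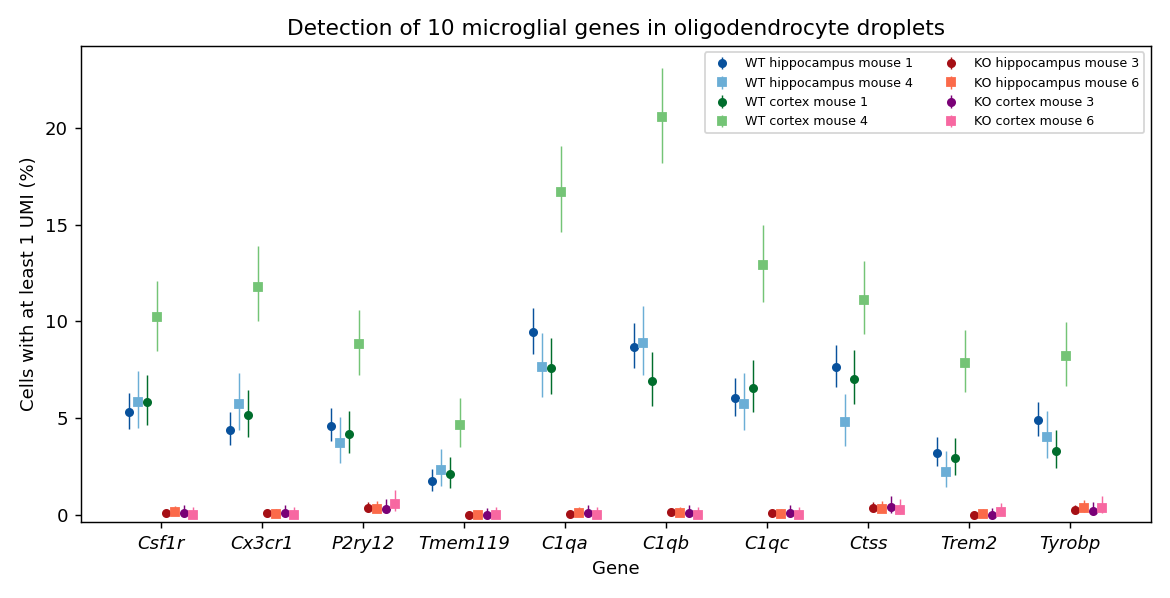
Share of cells with at least 1 UMI (y axis, %) for each of the 10 genes (x axis) in each of the 8 libraries, with bars giving 95% Clopper-Pearson intervals. The 4 KO libraries lie at or near 0 for every gene, and the WT cortex library of mouse 4 is the highest point, at 20.6% for C1qb.

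Tested on the log2 scale across all genes, the differences between genotypes were small in size and rested on 2 mice each. limma compared the mean of log2(normalized UMI + 1) per mouse, with Benjamini-Hochberg adjustment over those 11672 genes. All 10 members passed the filter, but 0 of the 10 had a mean KO share of 1%, so they were tested through their WT libraries alone. Their calls are therefore a description, and the shares of all tested genes printed with them are no support for a difference. Ctss was lower in KO by 0.06 (SE 0.0038, adjusted p = 0.014) and was the only member called, with 0.00857% of the tested genes called lower. This call was lost with no filter (adjusted p = 0.062), without the trend (0.98), with mouse as a random block over 8 libraries (0.9999) and without the cortex libraries of mice 4 and 6 (0.12). The other 9 members had differences from -0.09 (C1qb, SE 0.016, adjusted p = 0.34) to -0.02 (Tmem119, SE 0.0039, adjusted p = 0.37), and C1qa came nearest with -0.09 (SE 0.0088, adjusted p = 0.074). Mice 1 and 3 shared an age and batches, as did mice 4 and 6. With this pairing as a block limma called 6 members, with adjusted p of 0.0083 for Ctss, 0.017 for C1qa, 0.019 for Csf1r, 0.024 for C1qc and 0.026 for both P2ry12 and Tyrobp. The median difference was -0.06 over the 10 members and 0.0009 over all tested genes. In these sparse genes the mean log2 value understates the ratio. Summed UMIs per mouse tested with edgeR's quasi-likelihood test called all 10 members lower, with 0.154% of the tested genes called lower, at log2 fold changes from -2.11 for Tyrobp (adjusted p = 0.029) to -7.02 for Cx3cr1 (adjusted p = 0.0076), leaving aside Tmem119, whose KO count was 0 and whose fitted fold is no bound. For Tmem119 the WT share of cells was at least 59.8-fold higher than the share that 3 cells over all KO libraries would give. DESeq2 called 9 members lower, all but Trem2, with 0.206% of the tested genes called lower. In edgeR the log2 fold changes of the C1q genes were -6.45 for C1qb, -5.28 for C1qc and -4.95 for C1qa, and that of Csf1r was -6.25. Several of these folds rest on few KO cells: 25 of the 27 KO UMIs of C1qa, 13 of 15 of C1qc, 6 of 10 of C1qb and 77 of 97 of Tyrobp lay in 7 KO cells that are described below.

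Within 1 tissue the number of members called depended on the tool. In hippocampus limma called C1qb (-0.07, SE 0.0059, adjusted p = 0.035), Cx3cr1 (-0.04, SE 0.0035, adjusted p = 0.039) and Csf1r (-0.05, SE 0.0043, adjusted p = 0.039), with 0.0258% of 11612 genes called lower. On summed UMIs edgeR called 8 members there (0.103% of genes lower) and DESeq2 9 (0.164%). In cortex 0 of the 10 members and 0% of 11746 genes were called lower, with 288 genes at an unadjusted p under 0.05, while edgeR called Ctss (log2 fold change -5.25, adjusted p = 0.048; 0.00851% of genes lower) and DESeq2 called 9 members (0.196% of genes lower). The 2 WT cortex libraries differed most from each other, so that the standard error of C1qb was 0.035 in cortex and 0.0059 in hippocampus. The difference between the tissues in the size of the genotype effect was not called for any member by limma, with 0% of genes called and 695 genes at an unadjusted p under 0.05, and edgeR and DESeq2 called 1 and 2 genes, with 0 members among them. The member nearest to the threshold was Cx3cr1 with 0.03 (SE 0.015, adjusted p = 0.82). Nor was any member called between hippocampus and cortex. There limma called 0% of genes (652 at an unadjusted p under 0.05), edgeR 0 and DESeq2 25 genes, and limma with the mouse as a block 0.471% of genes, again with 0 members. Without the cortex libraries of mice 4 and 6, limma called 5 of the 10 members lower in KO over all oligodendrocytes, without Ctss among them, beside 0.0429% of the genes tested.

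Whether microglial genes met in the same droplets was then asked. Of the 5885 WT cells, 3151 had none of the 10 genes, 1970 had 1 gene, 564 had 2, 158 had 3, 24 had 4 and 18 had 5 or more. If each gene were found independently of the others within 5 depth strata of each library, 3090 cells would have had none, 1980 would have had 1, 644 would have had 2, 145 would have had 3 and 24.6 would have had 4. Summed over the WT libraries, the number with 2 genes thus lay below the expected one and those with 3 and 4 genes near it. Single libraries departed further: 174 cells with 2 genes stood against 211 expected in hippocampus of mouse 1 and 66 against 80.4 in hippocampus of mouse 4, and 5 cells with 4 genes against 1.49 in cortex of mouse 1. Cells with 2 or more genes numbered 0.875 times the expectation in hippocampus of mouse 1, 0.886 times in hippocampus of mouse 4, 1.01 times in cortex of mouse 1 and 0.965 times in cortex of mouse 4, with a mean of 0.933 ± 0.0115 (SD, n = 2 mice). Of the cells with any member, 78.7%, 80.2%, 76.6% and 55.5% had exactly 1 of the 10 genes, where independence gave 75.9%, 77.9%, 77.8% and 55.2%. The library with the lowest share of such cells, cortex of mouse 4, was also the one with the most microglial UMIs per cell. Over all WT cells with a member, 68.4% had 1 microglial UMI in all.

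The upper end of the distribution departed from that pattern. No more than 3.15 cells were expected with exactly 5 genes and 0.297 with exactly 6. Observed were 2 cells with 5 genes, 1 with 6, 2 with 7, 2 with 8, 8 with 9 and 3 with all 10. Cells with 5 or more genes occurred in every WT library, at 6, 3, 3 and 6 cells.

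**Figure D2:**
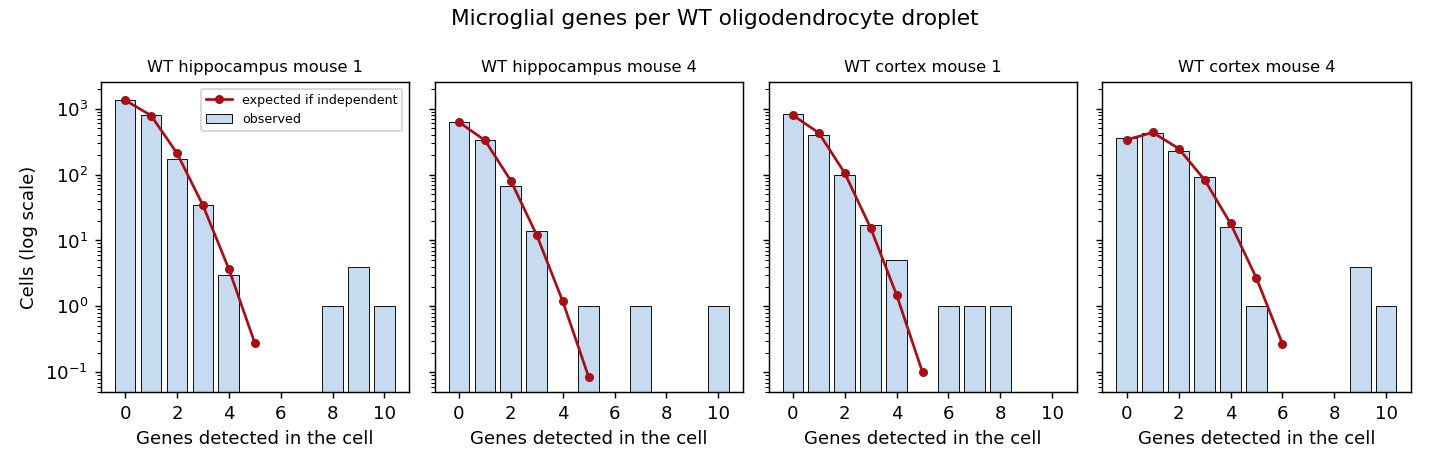
Number of cells (y axis, log scale) by how many of the 10 microglial genes were found in them (x axis), in each WT library; bars are observed cells and points the number expected if genes were found independently within depth strata (expected values under 0.05 are not drawn). Bars lie near the points up to 3 genes, with fewer cells of 2 genes than expected in the hippocampus libraries, and separate cells with 5 to 10 genes appear in all 4 libraries.

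Cells with 10 or more microglial UMIs made up most of this upper end. There were 18 of them among 5885 WT cells (0.306%; 8, 2, 3 and 5 per library), and they held 598 of the 4515 WT microglial UMIs, or 13.2%. The number of microglial UMIs in them ran from 10 over a median of 27.5 to 66, which was 0.0751% to 0.589% of all UMIs of the cell. In the other WT cells the highest number was 8. Of the 18 cells, 16 held 5 or more of the genes. The cell with the most, in WT hippocampus of mouse 1, had all 10 genes with 18 UMIs of Cx3cr1, 11 of Csf1r, 10 of C1qb and 8 of C1qa, next to 55 UMIs of Mbp. In these 16 cells the 10 genes of the border macrophage list summed to 0 or 1 UMI and the 6 genes of the monocyte and neutrophil list to 0 or 1 UMI, while Mbp ran from 34 to 99 UMIs. The remaining 2 cells, both in hippocampus of mouse 1, were led by Tyrobp with 10 UMIs each, and 1 of them held 91 UMIs of the monocyte and neutrophil list.

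KO libraries had such cells too, with other genes in them. There were 7 among 6696 KO cells (0.105%), and they held 136 of 219 KO microglial UMIs, or 62.1%. In 5 of them Tyrobp was the leading gene, at 10 to 24 UMIs, with at most 1 UMI of any other member, and 4 of these 5 held 16 to 376 UMIs of the monocyte and neutrophil list (S100a8, S100a9 and others). The other 2, both in hippocampus, held 22 and 38 microglial UMIs led by C1qa with 12 and 13, together with 19 and 34 UMIs of the border macrophage list, which covers macrophages of vessels and meninges such as those marked by Mrc1 and Cd163. Cx3cr1, P2ry12 and Tmem119 were at 0 in all 7 KO cells.

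**Figure D3:**
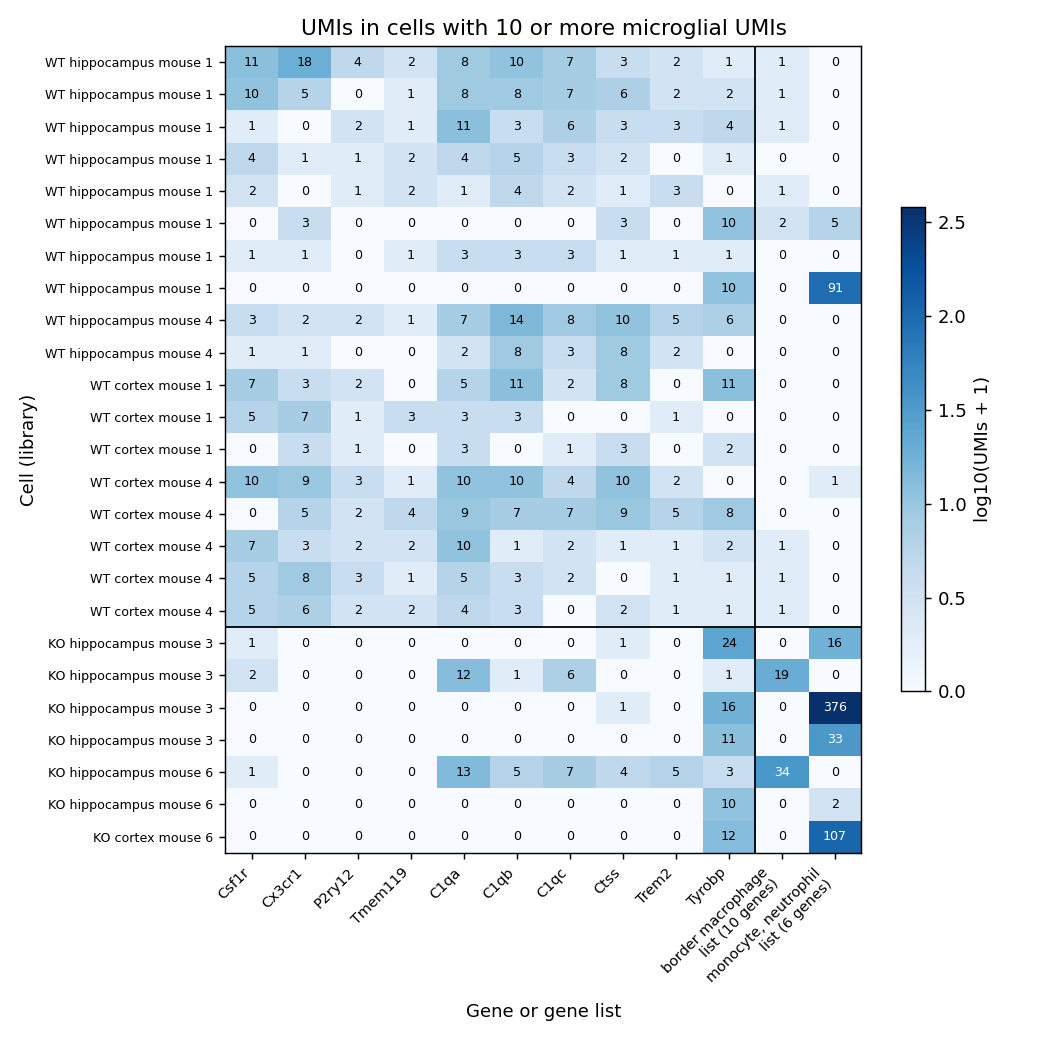
UMIs of each of the 10 genes, and summed UMIs of the border macrophage list (10 genes) and the monocyte and neutrophil list (6 genes), in each of the 25 cells with 10 or more microglial UMIs (rows, named by library; color gives log10(UMIs + 1)). The 18 WT cells lie above the line and the 7 KO cells below it; Cx3cr1, P2ry12 and Tmem119 read 0 in every KO row.

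Without these cells, pairs of genes met nearer to the rate of independence. The cells were picked by the summed UMIs of these same 10 genes, so their removal by itself lowers the pair ratios. The fall is therefore a description. Over the 45 pairs of members, the ratio of observed to expected WT cells with both genes had a median of 1.41 (0.993 to 2.82) over all cells, with 44 pairs above 1, and a median of 1.05 (0.499 to 1.37) without cells of 10 or more microglial UMIs, with 25 pairs above 1. Only 2 pairs, C1qb with Trem2 (1.12) and P2ry12 with C1qc (1.33), were then above 1 in all 4 WT libraries. Cells with 3 or more members still exceeded the expectation in all 4 WT libraries, at 1.12, 1.24, 1.41 and 1.14 times, and cells with 4 or more numbered 0.945, 0.874, 3.52 and 0.917 times the expectation. The C1q chains, which assemble into 1 protein, did not stand out. C1qa with C1qb met in 71 cells where 69.0 were expected, C1qa with C1qc in 46 where 47.1 were expected, and C1qb with C1qc in 41 where 51.4 were expected. Trem2 and Tyrobp, receptor and adaptor, met in 13 cells where 12.1 were expected. Cells were not replicates here and no p is given for these ratios.

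**Figure D4:**
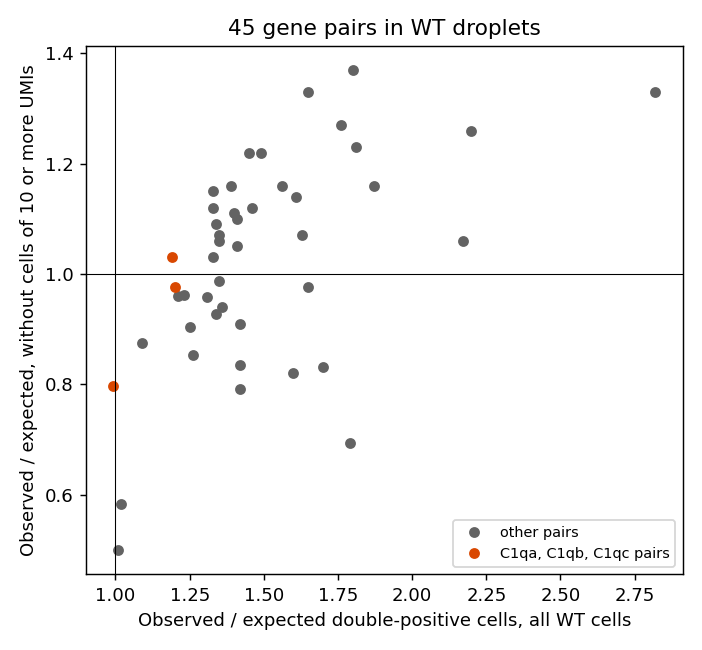
Ratio of observed to expected WT cells with both genes of a pair, over all WT cells (x axis) and without cells of 10 or more microglial UMIs (y axis), for 45 pairs of the 10 genes; lines mark a ratio of 1. On the x axis 44 pairs lie above 1 and on the y axis 25, and the 3 C1q pairs (orange) run from 0.797 to 1.03 on the y axis.

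The scattered UMIs held the genes in much the same proportions as the rich cells. In WT cells with fewer than 10 microglial UMIs, C1qb made up 16.7% of 3917 microglial UMIs (95% interval 15.5 to 17.9), C1qa 16.0% (14.9 to 17.2), Ctss 11.6% (10.6 to 12.6) and Csf1r 10.2% (9.26 to 11.2). In the 18 WT cells with 10 or more, called rich cells here, C1qb made up 15.6% of 598 UMIs (12.7 to 18.7), C1qa 15.6% (12.7 to 18.7), Ctss 11.7% (9.24 to 14.6) and Csf1r 12% (9.54 to 14.9). P2ry12 was the member whose intervals did not overlap, at 7.74% (6.92 to 8.62) in the other cells and 4.35% (2.86 to 6.31) in the rich cells. In KO cells with fewer than 10 microglial UMIs the makeup was another: P2ry12 made up 33.7% of 83 UMIs (23.7 to 44.9), Tyrobp 24.1% (15.4 to 34.7) and Ctss 22.9% (14.4 to 33.4), while C1qa was at 2.41% (0.293 to 8.43). These intervals treat UMIs as independent and cover counting error only.

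Microglial UMIs were spread over the oligodendrocyte clusters rather than held by 1 of them. In WT libraries the share of cells with any member was 45.2% in Oligo2, 42.2% in Oligo3 and 50.3% in Oligo4 for hippocampus of mouse 1, and 34.6%, 41.5% and 41.6% for hippocampus of mouse 4. For cortex of mouse 1 it was 41.4% and 38.1%, with 19 of 38 cells in Oligo4, and for cortex of mouse 4 it was 67.7%, 68.2% and 67.0%. Oligo4 cells were also the deepest, and after thinning to 5000 UMIs per cell the 3 clusters read 25.3%, 25.7% and 25.2%, then 14.9%, 18.5% and 18.7%, then 18.7%, 18.8% and 17.0%, and 40.0%, 42.4% and 35.4% in the same order of libraries. The clusters of 1 library thus lay nearer to each other than cortex of mouse 4 lay to the other WT libraries. Oligo1 held 6 WT cells in all, 2 of them with a member. In KO libraries Oligo1, which held 1552 KO cells, had shares of 1.16%, 0.893%, 0% and 1.02%, and the 0 of 147 cells in cortex of mouse 3 allow up to 2.04% by the limit of 3 cells used here for a share of 0 (Clopper-Pearson upper bound 2.48%).

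**Figure D5:**
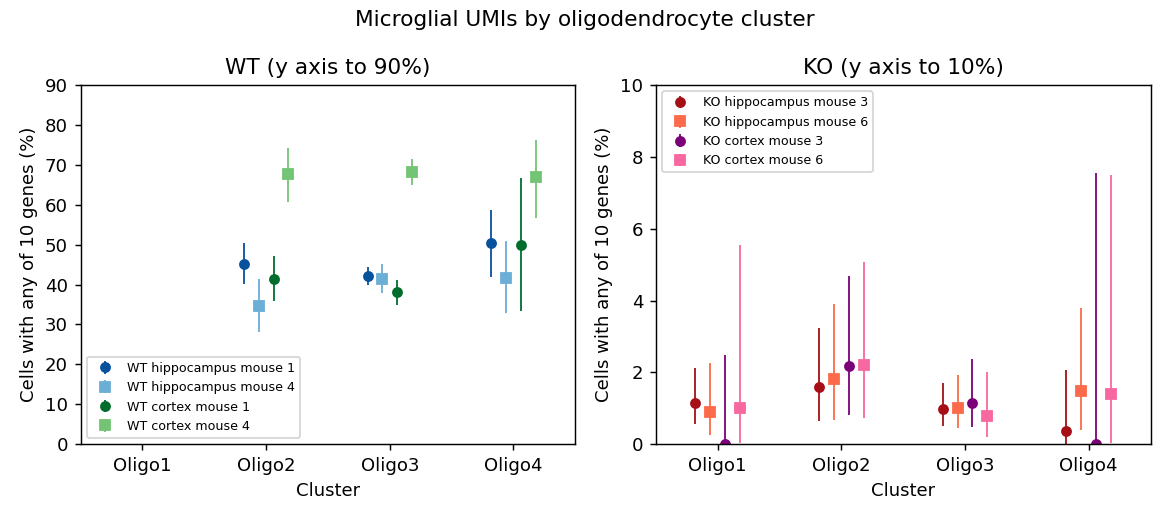
Share of cells with a UMI of any of the 10 genes (y axis, %) in each oligodendrocyte cluster (x axis) and library, with 95% Clopper-Pearson intervals; clusters with under 30 cells are not drawn and the y axes of the WT and KO panels differ. Within a WT library the clusters lie close together, and cortex of mouse 4 reads 67.0% to 68.2% in all 3.

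P2ry12 was the exception among KO cells. Of its 24 KO cells, 16 were in Oligo2, 7 in Oligo1, 1 in Oligo3 and 0 in Oligo4. In Oligo2 the share was 1.13% (5 of 441 cells), 0.906% (3 of 331), 1.09% (3 of 276) and 2.20% (5 of 227) in the 4 KO libraries, and in Oligo3 it was 0% (of 1218 cells), 0.113% (1 of 887), 0% (of 604) and 0% (of 507). Every KO library thus had its higher share in Oligo2. The 22 KO cells with Ctss lay otherwise, with 13 in Oligo3, 4 in Oligo1, 3 in Oligo2 and 2 in Oligo4. In WT cells P2ry12 showed no such order, with 5.82% in Oligo2 and 4.5% in Oligo3 in hippocampus of mouse 1 against 1.87% and 4.27% in hippocampus of mouse 4. In all 24 KO cells P2ry12 was the sole member found. The clusters were built from the expression of these same cells, so the cluster shares are a description.

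Among WT cells with fewer than 10 microglial UMIs, those with and without a member had close levels of the myelin gene Mbp. In the order of libraries above, the mean log2 level of Mbp was 5.26, 5.21, 5.37 and 5.30 in cells with a member and 5.28, 5.27, 5.38 and 5.30 in cells without. Median UMIs were higher in cells with a member in all 4 libraries, at 9576, 13834, 12761 and 11141 against 9255, 12925, 12102.5 and 10833. Likewise the share of cells with a member was 36.2% in the shallowest and 49.7% in the deepest depth stratum of hippocampus of mouse 1, and 66.2% and 70.4% in cortex of mouse 4. Of 6 markers of other brain cells, 5 met the microglial genes at close to the rate of independence: the ratio of observed to expected cells was 0.991 for Slc1a2 and 1.02 for Aldoc of astrocytes, 1.01 for neuronal Nrgn, 1.03 for Hbb-bs of erythrocytes and 1.01 for Pdgfra of oligodendrocyte progenitors. Endothelial Ly6c1 met them in 105 cells where 120 were expected, a ratio of 0.874 (0.772 to 1.05 over libraries).

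The wider microglial program was lower in KO droplets in most of its genes. Of a list of 30 other microglial genes, 24 had all KO libraries below all WT libraries, and 25 without the cortex libraries of mice 4 and 6. The share over all genes was counted only for genes that passed the 1% filter, so the counts of 24 and 25 have none beside them. Only 16 of the 30 passed that filter. Of these 16, 12 had all KO below all WT libraries, beside 0.574% of all genes that passed it, and again 12 without those cortex libraries, beside 1.47%. The mean KO share reached 1% for 5 of the 16, so the other 11 passed through their WT libraries. Both counts of 12 are therefore a description, and the shares beside them are no support for a difference. Among those 11 were Fcrls, an Fc receptor-like protein of microglia (mean 3.85% of WT and 0.0348% of KO cells), Gpr34, a lysophospholipid receptor (2.36% and 0.0768%), and Selplg, the selectin ligand (3.13% and 0.126%). Siglech, a sialic acid-binding lectin (1.59% and 0.0466%), had all KO below all WT libraries but did not pass the filter over all oligodendrocytes. Sall1, Itgb5, Lgmn, Ccl3 and Ccl4 were among those that overlapped between genotypes. Of these, Lgmn, a lysosomal protease, was found in 79.2% to 88.0% of WT and 81.8% to 91.9% of KO cells and Sall1 in 25.9% to 37.1% and 26.1% to 39.2%, levels at which the list's name does not describe the cells measured here. Of the 16 that passed the filter, limma called 0, DESeq2 10 (0.206% of all tested genes lower) and edgeR 7 (0.154%), all lower. The 7 were Fcrls (log2 fold change -5.43), Gpr34 (-5.27), Selplg (-4.08), Olfml3 (-4.04), Vsir (-3.08), Fcer1g (-2.79) and Rgs10 (-2.54), with adjusted p from 0.013 to 0.047. All 7 had a mean KO share under 1%, so they were tested through their WT libraries alone. Their calls are a description, and the shares of all tested genes printed with them are no support for a difference.

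Signalling partners of CSF1R, TREM2 and TYROBP were mostly shared by both genotypes. Of 10 such genes, 3 had all KO below all WT libraries, and these 3 did not pass the filter behind the share of 0.574%: Inpp5d, a phosphatase that restrains TREM2 signalling (1.08% and 0.0528%), Pik3cg, a leukocyte PI3 kinase (0.351% and 0.00898%), and Vav1, a leukocyte exchange factor (0.341% and 0.0348%). The ligand Csf1 was found in 39.5% to 58.0% of WT and 53.9% to 62.5% of KO cells, and the ligand Il34 in 0% to 0.295% and 0.186% to 0.718%. The kinase Syk overlapped as well, at 0.478% to 0.894% and 0.0931% to 0.672%. limma, edgeR and DESeq2 called 0 of the 3 partners that passed the filter. Of the 10 border macrophage genes, 1 (Stab1, a scavenger receptor; 0.641% and 0.0961%) had all KO below all WT libraries, and of the 6 monocyte and neutrophil genes none had; 0 of the 10 and 1 of the 6 passed the filter.

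The genes most like the microglial sum across WT cells were mostly other microglial genes, and the correlations were lower without the rich cells. Rich cells were picked by this same sum, so their removal narrows its range and by itself lowers the correlations. The fall is therefore a description. Over 11565 genes, the mean within-library Pearson correlation with the log2 microglial sum was among the highest for Itgam (0.197), Ly86 (0.165), Siglech (0.142), Laptm5 (0.141), Cd37 (0.132), Fcer1g (0.128), Olfml3 (0.127), Inpp5d (0.126) and Fyb (0.126). Of these 9 genes, 6 are in the list of other microglial genes and Inpp5d is among the signalling partners. Without cells of 10 or more microglial UMIs the correlation of Itgam was 0.0422, that of Ly86 0.0264 and that of Siglech 0.0208, and the highest of all genes was Olfml3 at 0.0612. The points are cells that share a library and its depth, the correlations are weak, and no p is given.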

How the data were processed

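Droplet libraries were aligned and counted by the authors with Cell Ranger 5.0.0 on the mm10 reference, per the labels and the methods of the study. They filtered cells, kept clusters with oligodendrocyte markers and no markers of other cell types, required 5000 UMIs and at most 10% mitochondrial reads per cell, and normalized with scran. The matrix deposited by the authors holds log2(UMI / size factor + 1), and the deposited cell table holds counts of UMIs and genes, the percent of mitochondrial UMIs, the size factor, batch and clusters (21 columns of it were not used). UMIs were recovered from the log2 values and size factors here, and all 42420937 values above 0 were whole within 0.001. The matrix holds fewer cells and genes than the methods of the study count, and the others were not analysed here. No doublet caller was run. Libraries were mapped to mice by the labels.

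The 10 members and the other gene lists were chosen with earlier results of these data known, so no count over them is independent support. Named genes were all members, list genes past a threshold and the 10 genes most like the microglial sum; some items are not reported here. A gene was detected where a cell had 1 or more UMIs. Expected numbers came from each gene's detection rate within 5 depth strata of a library. Thinning to 5000 UMIs was computed as the hypergeometric chance of a UMI. The threshold of 10 microglial UMIs was an arbitrary round number. Genotypes were compared with limma 3.58.1 (trend) on mouse means of the log2 values, tissues were compared over 8 libraries with genotype as a covariate, and the interaction was tested on the hippocampus minus cortex difference per mouse. edgeR 4.0.16 and DESeq2 1.42.0 on summed UMIs were alternatives (R 4.3.3). Scripts were tested on simulated data. Hippocampus and cortex libraries of 1 number come from 1 animal. The correlation of their deviations across genes was 0.834 in WT and 0.851 in KO, and genes are not independent replicates. Where no cell had a UMI, the upper limit is 3 cells of the library or genotype.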

Additional observations from a re-analysis of the deposited data

How the results depend on the processing

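With 2 mice per genotype, the number of genes that passed an adjusted p of 0.05 moved with nearly every setting, while all 10 members stayed lower in KO under every setting in which they were tested; the causes were not tested. Between genotypes over all oligodendrocytes limma called 6 genes and 1 member. It called 0 genes and 0 members with no filter, without the trend, and with mouse as a random replicate block over 8 libraries. A 5% filter left 2 members and called 0 of them, and a 10% filter left none. The log2 mean plus 0.1 called 21 genes and 6 members, an age block 51 and 6, edgeR 48 and 10, DESeq2 100 and 9, and leaving out the cortex libraries of mice 4 and 6 called 25 and 5. Without Oligo1 cells 3 genes were called. Leaving out 1 mouse, which assumes that the lone mouse of its genotype varies like the others, called 123 to 159 genes and 9 to 10 members.

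In hippocampus limma called 6 genes and 3 members. No filter and no trend called 0 and 0, filters at 5% and 10% called 3 and 2 genes, the log2 mean plus 0.1 called 23 genes, edgeR 48 genes and 8 members, DESeq2 106 and 9, and leaving out 1 mouse 106 to 214 and 9 to 10. In cortex 2 genes and 0 members were called. No filter, no trend and leaving out Oligo1 cells called 0 genes, the log2 mean plus 0.1 called 4, edgeR 5 genes and 1 member, DESeq2 53 and 9, and leaving out 1 mouse 56 to 115 and 5 to 10. Between tissues, 0 genes became 25 with DESeq2 and 55 with mouse as a replicate block, and members called stayed at 0. For the interaction, 0 genes became 2 with filters at 5% and at 10%, 1 with edgeR, 2 with DESeq2 and 0 to 75 with 1 mouse left out; members called ran from 0 to 9, and the 9 came without mouse 1, where the WT values rest on mouse 4. Removing cells of 10 or more microglial UMIs, chosen after seeing the data for these 5 comparisons, called 5 genes and 1 member over all oligodendrocytes and changed no count of members called.

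The difference in the share of cells with any member, -46.4 percentage points, kept its direction in all settings and ran from -52.9 to -40.0 with 1 mouse left out. The ratio of cells with 2 or more members to independence, 0.933, was 0.967 without the rich cells, 0.971 with the C1q genes counted as 1 member and 1.25 for 3 or more members, and 0.925 to 0.942 with 1 mouse left out. Values of KO shares rest on 2 to 24 cells per gene, or 0 for Tmem119.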

Other observations

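Transcripts of genes listed as markers of other brain cells were found in the same oligodendrocyte droplets in both genotypes. Which cells made them was not tested. The astrocyte glutamate transporter Slc1a2 was found in 47.6% to 60.0% of WT and 35.9% to 58.6% of KO cells, and the water channel Aqp4 in 3.54% to 6.18% and 4.38% to 6.31%. Of 6 astrocyte, 4 neuronal, 5 endothelial and 4 erythrocyte genes, none had its WT and KO libraries apart. Over all tested genes only 0.574% had every KO library below every WT library, so this is no result about these lists. Without the cortex libraries of mice 4 and 6, 1 of the 4 neuronal genes and 0 of the others had all KO below all WT libraries, beside 1.47% of the tested genes. All 4 erythrocyte genes had a higher mean share in KO, at 30.2% of KO and 18.4% of WT cells for Hbb-bs, 15.8% and 8.03% for Hba-a1, 6.66% and 4.26% for Hba-a2 and 5.17% and 2.86% for Hbb-bt. In limma their unadjusted p ran from 0.0050 to 0.024 and the adjusted p from 0.65 to 0.9998; limma, edgeR and DESeq2 called 0 of the 4. Hbb-bs, a globin chain, was found in 11.1% to 22.7% of WT and 21.8% to 45.9% of KO cells.

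Among 4 oligodendrocyte progenitor genes, Lhfpl3 was the only 1 whose libraries did not overlap. It was found in 4.40% to 6.21% of WT and 6.98% to 13.9% of KO cells. The share of all genes with every KO library above every WT library was not counted. edgeR called Lhfpl3 higher in KO (log2 fold change 1.28, adjusted p = 0.035), DESeq2 called it higher too, and limma did not. In edgeR, 30 of the 11672 tested genes were called higher, and in DESeq2 76. The neutrophil genes S100a8 and S100a9 were found in 0.126% to 1.69% and 0.169% to 2.67% of WT cells and in 0.362% to 1.22% and 0.414% to 2.99% of KO cells.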
